A study of Homo sapiens with 6 samples.

Results

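The 10 genes described here encode components of the desmosome: the cadherins DSG2, DSG3, DSC2 and DSC3, the armadillo proteins JUP, PKP1, PKP2, PKP3 and PKP4, and the plakin DSP. They were chosen by name as desmosome components, and all 10 had a row among the 30560 genes of the expression table. Desmosomes are adhesive junctions that fasten the intermediate filaments of neighbouring epithelial cells to one another. Desmogleins and desmocollins bind across the gap between cells, plakoglobin (JUP) and the plakophilins hold their tails together, and desmoplakin (DSP) ties the assembly to keratin filaments. In the intestine, whose lining is 1 cell layer deep, DSG2 and DSC2 are the usual cadherins, whereas DSG3 and DSC3 are best known from the deeper layers of skin and other stratified epithelia.

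RNA was sequenced from HCT116, an established human colorectal carcinoma line. There were 3 CPT-11 samples, treated with irinotecan at 10 µM for 48 hours, and 3 control samples that received DMSO. The genotype of both groups is labelled WT. The labels do not say whether the replicates were separate cultures, so p-values reflect only how much these samples spread, and the series text speaks of duplicates where the labels give 3 samples a group.

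Libraries held 15398464 to 18031195 reads on genes. At this depth a floor of 3 reads equals 0.166 to 0.195 CPM (reads scaled by the library's total on genes), and such floors and all read intervals cover counting error only. Library 1 stood apart in both groups: its counts differed from those of libraries 2 and 3 with a chi-square per degree of freedom of 8.0 and 10.8 in CPT-11 cells and of 11.5 and 11.0 in control cells, against 3.19 between libraries 2 and 3 of CPT-11 cells and 3.86 between those of control cells. Of 8 colon epithelial markers, 7 averaged at least 1 CPM over the 6 samples, and their summed level was 6284 to 7093 CPM in CPT-11 cells and 3268 to 3731 CPM in control cells. Most of that sum was KRT8, KRT18 and KRT19. All of the 7 but EPCAM averaged higher in CPT-11 cells, and EPCAM averaged 232 CPM in CPT-11 cells and 234 CPM in control cells. VIL1, which encodes the brush border protein villin, had 17 reads over the CPT-11 libraries and 7 over the control libraries. The T cell, macrophage and endothelial marker lists summed to at most 2.05 CPM in any library. Other lists were higher after treatment: fibroblast markers summed to 57.1 to 79.0 CPM in CPT-11 cells and 32.0 to 39.0 CPM in control cells, nearly all of it COL1A1. Melanocyte markers summed to 13.9 to 14.7 CPM in CPT-11 cells and 7.48 to 8.37 CPM in control cells, and muscle markers to 6.30 to 6.75 CPM in CPT-11 cells and 3.38 to 3.86 CPM in control cells. Their part in the results below was not tested.

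After CPT-11, DSC3, JUP and DSP rose, PKP4 and PKP2 fell, and DSG2, DSC2 and PKP3 did not pass the test. DSG3 and PKP1 had too few reads to enter it. The test was limma on log2(normalized count + 1), where a normalized count is the authors' read count divided by a factor for the library. It covered 16239 genes that averaged at least 10 normalized counts, and a gene passed at a Benjamini-Hochberg adjusted p below 0.05. Of the 8 tested members, 3 rose and 2 fell, beside 24.3% of all tested genes that rose and 25.1% that fell. The groups did not overlap for 5 of the 8, beside 56.6% of all tested genes. The median log2 fold change was 0.12 over the 8 members and 0.0099 over all tested genes, so in number of calls and in median the members were close to the background of a treatment that moved 49.4% of tested genes. In bulk RNA, fewer cells of a kind and less RNA per cell cannot be told apart.

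**Figure D1:**
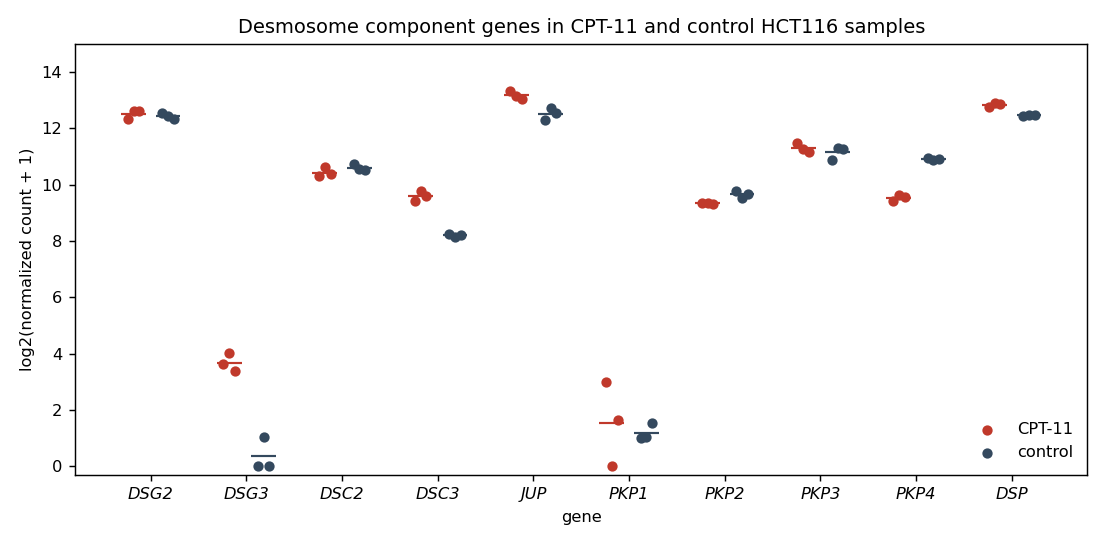
Normalized counts of the 10 desmosome genes in each library on a log2 axis, shown as log2(normalized count + 1), with CPT-11 samples left of control samples, points for samples and lines for group means on that scale. DSC3 sits between 691 and 870.3 normalized counts in CPT-11 samples, all above the 285 to 302 of the control samples, and PKP4 sits between 681 and 786 in CPT-11 samples, all below the 1906 to 1989 of the control samples.

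Among the cadherins, DSC3, the desmocollin of basal and stratified epithelium, gave the largest rise of the tested members. It had 691, 870.3 and 785 normalized counts in CPT-11 samples 1, 2 and 3, against 302, 285 and 296 in control samples 1, 2 and 3. Every CPT-11 sample was far above every control sample, with no overlap. The means were 782 ± 89.5 in CPT-11 cells and 294 ± 8.85 in control cells (SD, n = 3 each), a log2 fold change of 1.40 (SE 0.12; limma adjusted p = 2.29e-08) or 2.64-fold.

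DSC2, the desmocollin of simple epithelium, did not follow DSC3. It had 1263, 1569 and 1338 normalized counts in CPT-11 samples, against 1692, 1502 and 1455 in control samples. The groups overlapped, since CPT-11 sample 2 was above control samples 2 and 3. The log2 fold change was −0.16 (SE 0.10; limma adjusted p = 0.205). Sample 1 was the lowest of the CPT-11 samples and the highest of the control samples. Without library 1 of either group, chosen after seeing the data, the log2 fold change was −0.029 (limma adjusted p = 0.782).

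Scaled per length, as RPKM (reads scaled by exon length and by the library's total), DSC3 and DSC2 came to the same level after treatment. DSC3 stood at 6.85 ± 0.69 RPKM in CPT-11 cells and 2.52 ± 0.10 RPKM in control cells, while DSC2 stood at 6.88 ± 0.70 RPKM in CPT-11 cells and 7.50 ± 0.52 RPKM in control cells (SD, n = 3 each). DSC3 therefore made up 49.9% ± 0.91 of the summed desmocollin level in CPT-11 cells and 25.2% ± 1.24 in control cells. The shares were 49.2%, 49.5% and 50.9% in CPT-11 samples and 24.0%, 25.1% and 26.5% in control samples, with no overlap. These levels and the sizes of the shares depend on the exon length used, 7056 bases for DSC3 and 12495 for DSC2. Over the CPT-11 libraries DSC3 had 2389 reads and DSC2 4253. The log2 ratio of DSC3 to DSC2 was 1.56 higher in CPT-11 cells (two-sided exact permutation p = 0.1, the smallest that 3 against 3 samples can give; 0.12 after Benjamini-Hochberg adjustment over the 6 pairs of relatives compared).

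DSG2, the desmoglein that most epithelia make, was the main cadherin in both groups. It had 5149, 6327 and 6305 normalized counts in CPT-11 samples, against 5998, 5586 and 5121 in control samples. The groups overlapped, with CPT-11 sample 1 close to the lowest control sample. The log2 fold change was 0.086 (SE 0.097; limma adjusted p = 0.485). Without library 1 of either group, an alternative chosen after seeing the data, it was 0.24 (limma adjusted p = 0.00289) and passed. DSG2 shares 2.76% of its exonic bases with DSG2-AS1 on the opposite strand, which had 18 reads over the CPT-11 libraries and 33 over the control libraries. Since it is not stated whether the counting used strand, reads in that stretch are uncertain.

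DSG3, the desmoglein of basal keratinocytes and the autoantigen of pemphigus vulgaris, had 1 read in all over the control libraries. It had 13, 15 and 9 reads in the CPT-11 libraries, against 0, 1 and 0 reads in the control libraries. All 3 CPT-11 libraries were above all 3 control libraries, and 37 reads against 1 give a ratio of 36.9 (exact 95% interval 6.23 to 1498, counting error only). Of the 31-base words of the longest DSG3 transcript, 5.17% occur in other genes in the same sense and 4.91% in reverse. RAB3B and SYTL2 are among the genes that share them. Whether any of the 37 CPT-11 reads came from such shared words was not tested, so the DSG3 level is uncertain. A mean under 10 normalized counts kept DSG3 out of the test. Fitted without that filter, where 13.5% of 30560 genes rose, its log2 fold change was 3.33 with limma (adjusted p = 0.000162) and 4.73 with edgeR's quasi-likelihood test (adjusted p = 3.76e-05). The authors' deposited table gives DSG3 a log2 fold change of 5.07 and an adjusted p of 0.00194. These fitted sizes depend on what is added to a count near 0. Per length DSG3 stayed small, at 0.135 ± 0.031 RPKM in CPT-11 cells and 0.0038 ± 0.0067 RPKM in control cells (SD, n = 3 each). The difference in log2 ratio of DSG3 to DSG2 was 3.25 (two-sided exact permutation p = 0.1, the smallest possible; 0.12 adjusted over 6 pairs). It was 3.99 with 0.5 added to each normalized count and 1.58 with 5 added, in place of 1.

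Over the 4 cadherins together, the summed level was 73.1 ± 7.06 RPKM in CPT-11 cells and 64.4 ± 3.85 RPKM in control cells (SD, n = 3 each), with overlapping groups. DSG2 contributed 81.0% ± 1.08 of it in CPT-11 cells and 84.4% ± 0.48 in control cells. DSC3 contributed 9.38% ± 0.36 in CPT-11 cells and 3.93% ± 0.29 in control cells. DSC2 contributed 9.43% ± 0.68 in CPT-11 cells and 11.6% ± 0.29 in control cells. DSC3 and DSG3 were minor contributors in both groups, and the sum stayed mostly DSG2.

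**Figure D2:**
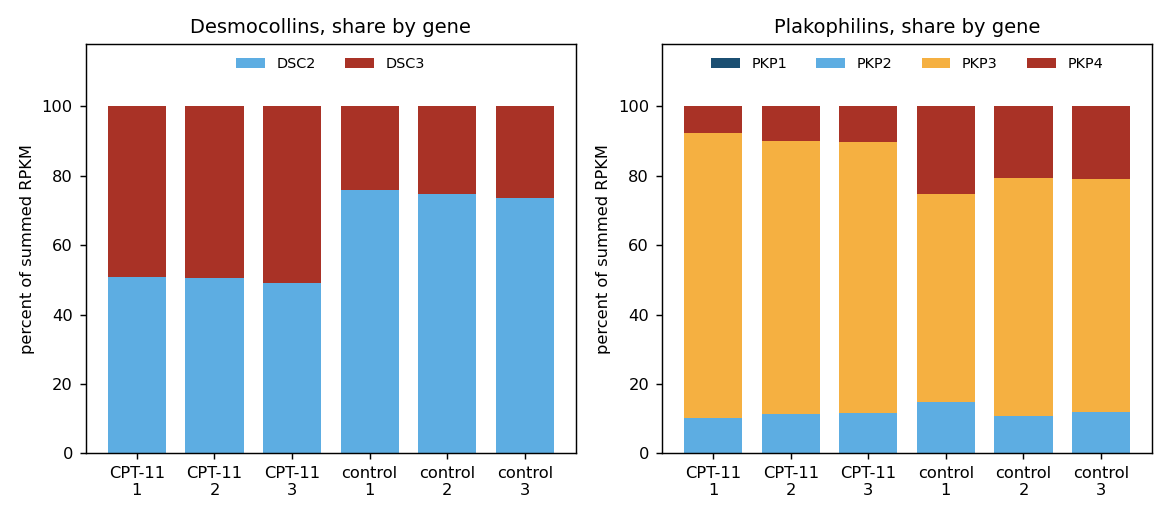
Stacked shares, in percent of summed RPKM, of each gene within the desmocollins (left) and the plakophilins (right), 1 bar a sample, with the CPT-11 samples left of the control samples; PKP1 is too small to be seen. DSC3 takes 49.2% to 50.9% of each CPT-11 bar and 24.0% to 26.5% of each control bar, and PKP4 averages 9.31% in CPT-11 samples and 22.2% in control samples. The sizes of the shares depend on the exon length used for each gene.

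The promoters of the 2 cadherins with the highest fold of CPT-11 over control, of the desmocollin that did not pass, and of the member that fell most are shown to set the start sites beside these levels. Each is the 250 bases before a RefSeq start on GRCh38.p14, 5′ to 3′ on the gene's strand, and capitals mark matches to motifs searched on both strands.
DSC3, chr18:31042743-31042992, minus strand: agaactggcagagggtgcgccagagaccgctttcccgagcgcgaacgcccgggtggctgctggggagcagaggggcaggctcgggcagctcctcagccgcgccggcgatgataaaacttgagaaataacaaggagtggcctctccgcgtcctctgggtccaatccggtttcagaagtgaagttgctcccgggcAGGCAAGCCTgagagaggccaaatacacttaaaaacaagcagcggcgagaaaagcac
DSG3, chr18:31447491-31447740, plus strand: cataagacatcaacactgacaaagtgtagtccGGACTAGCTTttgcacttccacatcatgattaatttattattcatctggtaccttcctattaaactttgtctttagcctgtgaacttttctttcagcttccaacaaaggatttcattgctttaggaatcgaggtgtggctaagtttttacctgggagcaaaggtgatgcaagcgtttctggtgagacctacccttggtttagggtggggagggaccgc
DSC2, chr18:31102422-31102671, minus strand: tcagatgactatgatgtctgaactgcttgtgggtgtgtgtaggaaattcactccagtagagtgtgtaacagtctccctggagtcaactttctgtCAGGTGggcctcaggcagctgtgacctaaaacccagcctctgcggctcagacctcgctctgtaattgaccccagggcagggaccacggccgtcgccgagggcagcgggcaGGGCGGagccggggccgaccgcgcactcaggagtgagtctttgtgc
PKP4, chr2:158456702-158456951, plus strand: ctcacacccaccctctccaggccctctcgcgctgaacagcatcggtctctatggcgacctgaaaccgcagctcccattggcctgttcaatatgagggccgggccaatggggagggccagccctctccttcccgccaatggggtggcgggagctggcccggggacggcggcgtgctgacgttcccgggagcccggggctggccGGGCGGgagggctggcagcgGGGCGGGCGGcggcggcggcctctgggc
The motifs were AP-1 (TGANTCA), the SNAIL/ZEB E-box (CAGGTG), the SP/KLF GC box (GGGCGG), the TATA box (TATAAA), the TCF/LEF site (CTTTGA), the C/EBP site (TTGCNNAA) and the p53 family decamer. In DSC3 and DSG3 the capitals are matches to the p53 family decamer, 57 bases before the DSC3 start and 218 bases before the DSG3 start. A p53 family decamer is found in 5.57% of 35116 promoters of the same length. None of the other windows found for the members held one, and these include the windows of JUP and DSP, which also rose. In the DSC2 window shown the capitals are an E-box, found in 17.5% of promoters, and a GC box, found in 42.6%. The PKP4 window shown holds 3 GC boxes, 2 of which overlap. Both genes have a second RefSeq start whose window differs: that of DSC2 (chr18:31101261-31101510) holds 2 GC boxes and no E-box, and that of PKP4 (chr2:158457643-158457892) holds 1 GC box. DSC3 had 60.4% GC and 18 CpG, DSG3 42.8% GC and 4 CpG, against medians of 58.0% GC and 11 CpG over all promoters. RefSeq windows were found for 8 of the 10 members, 11 windows in all. Of the other motifs searched, AP-1 is found in 6.57% of promoters, TATAAA in 10.7%, CTTTGA in 11.2% and TTGCNNAA in 9.05%. A match describes letters only.

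The 4 cadherin genes lie in 1 cluster of 559 kb on chromosome 18 (GRCh38, 30990008 to 31549008) together with DSC1, DSG1 and DSG4, which serve the outer layers of skin and hair. DSC3 (30990008 to 31042815) and DSC2 (31058840 to 31102522) lie side by side on the minus strand, yet DSC3 rose and DSC2 did not pass. DSG3 (31447795 to 31478702) and DSG2 (31498043 to 31549008) are neighbours on the plus strand at the other end, and there DSG3 was the higher of the pair in ratio of CPT-11 to control. The relatives between them were at trace levels: DSC1 had 10 reads over the CPT-11 libraries and 13 over the control libraries. DSG1 had 6 reads over the CPT-11 libraries and 4 over the control libraries, and DSG4 had 19 over the CPT-11 libraries and 6 over the control libraries. There were 14 genes with a row in the cluster and 200 kb either side. Outside the cadherins, 2 of them were tested. B4GALT6, which encodes a lactosylceramide synthase, fell, with a log2 fold change of −0.53 (SE 0.11; limma adjusted p = 0.000859), and AC017100.1, an antisense RNA, did not pass (0.37, SE 0.31; limma adjusted p = 0.338). DSCAS, AC012417.1, DSG1-AS1 and AC021549.1, noncoding RNAs of the same stretch, each had at most 4 reads over the CPT-11 libraries and at most 9 over the control libraries.

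**Figure D3:**
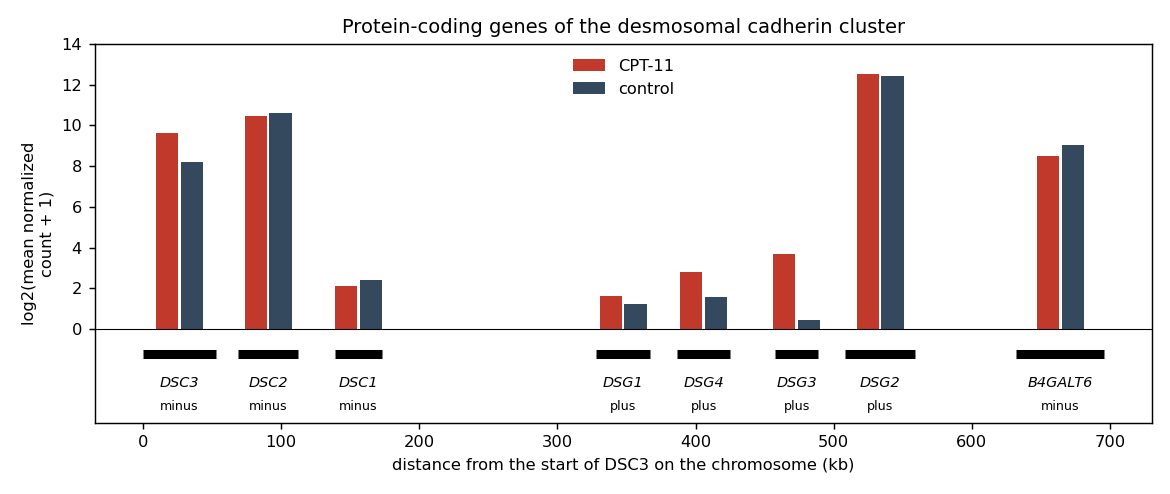
Protein-coding genes of the cadherin cluster by distance in kb from the start of DSC3 on the chromosome, drawn to scale as black bars with their strand, under the log2(mean normalized count + 1) of 3 CPT-11 and 3 control samples. Bars are not scaled by gene length and compare groups within a gene: DSC3 averages 782 normalized counts in CPT-11 cells and 294 in control cells, and B4GALT6 averages 362 in CPT-11 cells and 522 in control cells.

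JUP, the plakoglobin that binds desmosomal and classical cadherins alike, was the most abundant member per length in both groups. Its gene lies on chromosome 17 (GRCh38, 41754604 to 41786931, minus strand). It had 10273, 9003 and 8524 normalized counts in CPT-11 samples, against 5064, 6752 and 5993 in control samples. The lowest CPT-11 sample was above the highest control sample. The means were 9267 ± 904 in CPT-11 cells and 5936 ± 845 in control cells (SD, n = 3 each), a log2 fold change of 0.65 (SE 0.10; limma adjusted p = 5.8e-05), or 1.57-fold. CPT-11 sample 1 was the highest and control sample 1 the lowest of all 6, so library 1 widened the difference: without it in either group the log2 fold change was 0.46 (limma adjusted p = 7.15e-06).

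The longest JUP transcript is 61.5% GC, and its log2 level in sample 1 lay 0.23 above the mean of samples 2 and 3 in CPT-11 cells and 0.33 below it in control cells. Over 2109 tested protein-coding genes of at least 60% GC, the median of that deviation was 0.25 in CPT-11 cells and −0.31 in control cells, their median log2 fold change was 0.18 and 35.1% of them rose. The part of library 1 and of base composition in the rise of JUP was not tested.

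β-catenin (CTNNB1), the closest relative of JUP and the armadillo protein of adherens junctions, did not pass, at a log2 fold change of 0.20 (SE 0.087; limma adjusted p = 0.0648). The log2 ratio of JUP to CTNNB1 was 0.17, −0.20 and −0.26 in CPT-11 samples, against −0.87, −0.32 and −0.44 in control samples. All CPT-11 ratios were above all control ratios, by 0.45 on average (two-sided exact permutation p = 0.1, the smallest possible; 0.12 adjusted over 6 pairs). Sample 1 gave the highest CPT-11 ratio and the lowest control ratio, so library 1 widened this difference too. Among samples 2 and 3, the nearest ratios were −0.26 in CPT-11 cells and −0.32 in control cells.

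DSP, the plakin that carries the keratin filaments, rose by a smaller fold with tight replicates. Its gene lies on chromosome 6 (7541575 to 7586717, plus strand). It had 6945, 7722 and 7496 normalized counts in CPT-11 samples, against 5592, 5772 and 5679 in control samples. The groups did not overlap. The means were 7388 ± 399.7 in CPT-11 cells and 5681 ± 90.1 in control cells (SD, n = 3 each), a log2 fold change of 0.38 (SE 0.08; limma adjusted p = 0.000896), or 1.3-fold. JUP, DSP, DSG2, DSC2 and DSC3 each span 30 to 60 kb, a range in which 28.5% of tested protein-coding genes rose and 23.6% fell.

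The plakophilins, which gather desmoplakin and cadherins at the plaque, fell or did not pass, apart from PKP1, which was not tested. PKP4, also called p0071, is the member nearest to the p120-catenin family and is found at adherens junctions as well. It had 681, 786 and 754 normalized counts in CPT-11 samples, against 1989, 1906 and 1952 in control samples. Every CPT-11 sample was far below every control sample. The means were 740.3 ± 54.1 in CPT-11 cells and 1949 ± 41.8 in control cells (SD, n = 3 each), a log2 fold change of −1.40 (SE 0.09; limma adjusted p = 1.73e-09), or 2.63-fold lower.

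PKP4 is also the longest of the 10 genes, spanning 226 kb on chromosome 2 (158456964 to 158682879). Among tested protein-coding genes spanning 150 to 300 kb, 61.7% fell and 8.59% rose. Their log2 fold changes had a median of −0.48 and a 5th percentile of −1.50. PKP4, at −1.40, lay between them. With the trend of fold change on gene span subtracted, −0.62 at its length, PKP4 stood at −0.78, so that its value moved by over 1.5 times. Of its exonic bases 4.39% are shared with PKP4-AS1 on the opposite strand, which had 20 reads over the CPT-11 libraries and 37 over the control libraries. A further 3.84% of the 31-base words of its longest transcript are found in other genes, a pseudogene among them.

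PKP2, the plakophilin of heart and of simple epithelia, fell slightly. It had 647, 661 and 634 normalized counts in CPT-11 samples, against 868, 747 and 824 in control samples. The groups did not overlap. The means were 647 ± 13.2 in CPT-11 cells and 813 ± 61.4 in control cells (SD, n = 3 each), a log2 fold change of −0.33 (SE 0.10; limma adjusted p = 0.0126), or 1.25-fold lower.

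Of the 5 calls among the members, this one was lost under an alternative scaling, by library totals without mitochondrial genes (log2 fold change −0.24, limma adjusted p = 0.0522). It was also lost with the replicate number as a block in the fit (limma adjusted p = 0.0608). PKP2 spans 106 kb on chromosome 12 (32790745 to 32896840, minus strand), and of tested protein-coding genes spanning 60 to 150 kb 36.6% fell and 15.8% rose. Less the trend on span, its log2 fold change was −0.12. In addition, 14.4% of the 31-base words of its longest transcript are also found in a pseudogene, ENSG00000256913, and how reads that align to both were counted is not stated, so its level is uncertain.

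PKP3, the main plakophilin of these cells, did not pass. It had 2872, 2472 and 2293 normalized counts in CPT-11 samples, against 1883, 2531 and 2494 in control samples. The groups overlapped, with library 1 highest in CPT-11 cells and lowest in control cells. The log2 fold change was 0.15 (SE 0.11; limma adjusted p = 0.292), and without library 1 of either group it was −0.078 (limma adjusted p = 0.336). PKP3 is the most GC-rich member, with a longest transcript of 66.7% GC, and its sample 1 lay 0.27 above samples 2 and 3 on the log2 scale in CPT-11 cells and 0.42 below them in control cells. Of tested protein-coding genes spanning 10 to 30 kb, as PKP3 does with 12.3 kb on chromosome 11 (392614 to 404908, plus strand), 33.8% rose and 17.0% fell.

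PKP1, the plakophilin of stratified epithelium, was at the limit of detection. Its gene lies on chromosome 1 (201283452 to 201332993, plus strand). It had 8, 0 and 2 reads in the CPT-11 libraries, against 1, 1 and 2 reads in the control libraries. CPT-11 library 1 held 8 of the 10 CPT-11 reads, and the ratio of 2.50 had an exact 95% interval of 0.72 to 10.9 (counting error only). No difference was detectable at this depth.

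Together the plakophilins summed to 52.2 ± 5.27 RPKM in CPT-11 cells and 56.2 ± 5.84 RPKM in control cells (SD, n = 3 each). PKP3 made up 79.7% ± 2.19 of this in CPT-11 cells and 65.2% ± 4.63 in control cells, and PKP4 made up 9.31% ± 1.36 in CPT-11 cells and 22.2% ± 2.59 in control cells. PKP2 made up 11.0% ± 0.88 in CPT-11 cells and 12.6% ± 2.06 in control cells, with overlapping shares. The sizes of these shares depend on the exon length used for each gene. The log2 ratio of PKP4 to PKP3 was 1.55 lower in CPT-11 cells and that of PKP2 to PKP3 was 0.48 lower, each without overlap of the groups (two-sided exact permutation p = 0.1 for both, the smallest possible; 0.12 adjusted over 6 pairs). Library 1 widened both differences. The ratio of PKP2 to PKP3 was −2.15 in CPT-11 sample 1 and −1.12 in control sample 1. In samples 2 and 3 it was −1.90 and −1.85 in CPT-11 cells, against −1.76 and −1.60 in control cells. The log2 ratio of PKP1 to PKP3 differed by 0.20 (p = 0.8 by the same exact permutation test and after adjustment).

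**Figure D4:**
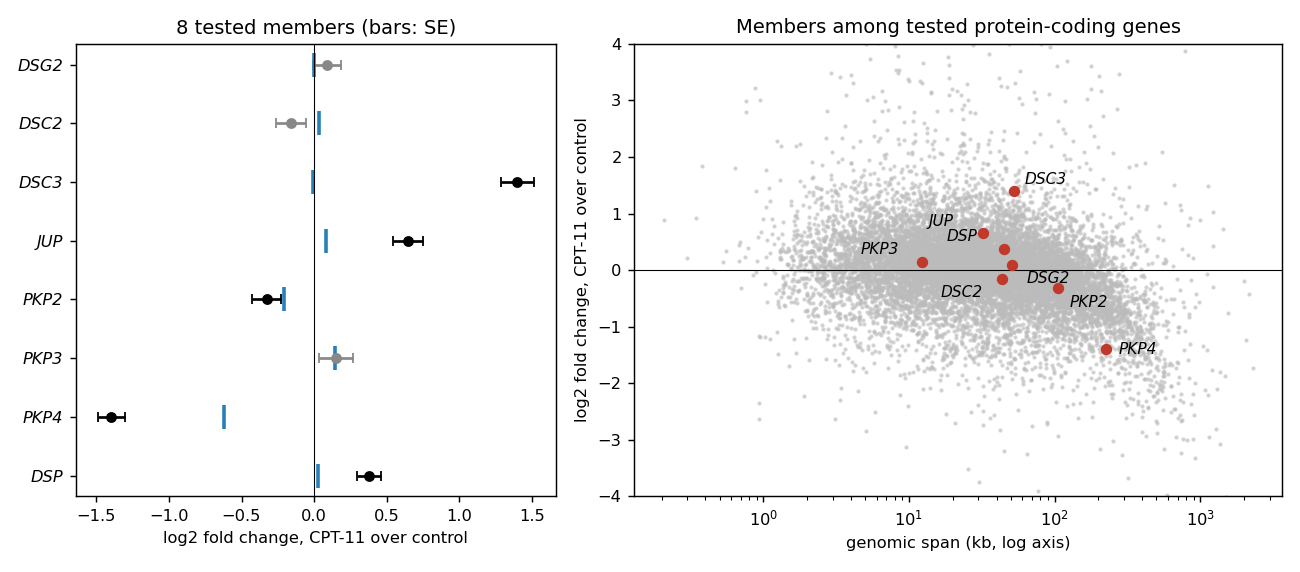
Left, log2 fold change of CPT-11 over control for the 8 tested members with SE whiskers, black where the test was passed and grey where it was not, and a blue tick at the value of the trend for a gene of that span. Right, log2 fold change of 13215 tested protein-coding genes against genomic span on a log axis, members in red, with the axis held to −4 to 4 so that 34 genes lie outside it. PKP4 stands at −1.40 with its tick at −0.62, while DSC3 stands at 1.40 with its tick at −0.0052.

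Set in order per length, the members had JUP first in both groups, with PKP1 last in CPT-11 cells and DSG3 last in control cells, both at a few reads. In CPT-11 cells JUP stood at 116 ± 12.8 RPKM, DSG2 at 59.2 ± 5.98, DSP at 45.3 ± 1.79 and PKP3 at 41.7 ± 5.38, and the ranges of DSP and PKP3 overlapped. In control cells JUP stood at 72.6 ± 10.3 RPKM, DSG2 at 54.3 ± 3.37, PKP3 at 36.8 ± 6.14 and DSP at 34.0 ± 0.87, and again the ranges of PKP3 and DSP overlapped. The lower tier changed its order. PKP4 stood at 4.81 ± 0.28 RPKM in CPT-11 cells, below DSC2, DSC3 and PKP2 at 5.69 ± 0.12, whereas it led them at 12.4 ± 0.40 RPKM in control cells, where PKP2 stood at 6.98 ± 0.57. DSC2 and DSC3 in CPT-11 cells, and DSC2 and PKP2 in control cells, did not differ beyond their spread. These orders between genes depend on the length used, here all exonic bases of a gene. For PKP4 that was 9525 bases, against 5777 in its longest transcript, and for PKP3 3787 against 2809. For DSC2 it was 12495 against 12325. Levels per longest transcript were not computed.

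The other genes of the junction were read from lists chosen for their roles. Each count below stands beside a background of 24.3% of all tested genes that rose, 25.1% that fell and a median log2 fold change of 0.0099. Of 8 further desmosome family genes with a row, 4 were tested, of which 3 rose and 1, CTNND1, did not pass (median log2 fold change 0.56). PERP, a membrane protein of desmosomes and a target of p53, averaged 9455 ± 577 normalized counts in CPT-11 cells and 4811 ± 215 in control cells (SD, n = 3 each), a log2 fold change of 0.97 (SE 0.08). ARVCF, a p120-catenin relative, rose by 0.71 (SE 0.11).

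Of 15 adherens junction genes tested, 5 rose and 6 fell (median 0.13), beside 24.3% of all tested genes that rose and 25.1% that fell. NECTIN4, a cell adhesion molecule, averaged 449 ± 22.05 normalized counts in CPT-11 cells and 32.7 ± 9.72 in control cells (SD, n = 3 each), a log2 fold change of 3.77 (SE 0.19). AJUBA, a LIM domain protein of the junction, rose by 1.18 (SE 0.09). E-cadherin (CDH1), the classical cadherin of epithelium, rose by 0.40 (SE 0.09; limma adjusted p = 0.0012), close to the value of DSP.

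On the filament side of the desmosome, 8 of 11 simple epithelial keratins and plakins tested rose and 2 fell (median 0.94), beside 24.3% and 25.1% of all tested genes. The 2 that fell span 497 and 406 kb, above the range of 150 to 300 kb in which 61.7% of tested protein-coding genes fell. KRT7, a keratin of ducts, averaged 786 ± 73.7 normalized counts in CPT-11 cells and 84.3 ± 13.5 in control cells (SD, n = 3 each), a log2 fold change of 3.21 (SE 0.14), and KRT80 rose by 2.42 (SE 0.24). KRT7 and KRT80 span 19.7 and 23.0 kb, and of tested protein-coding genes spanning 10 to 30 kb 33.8% rose. The part of gene span in the rise of these keratins was not tested. KRT8 and KRT18, the keratin pair of simple epithelium and markers of the colon epithelial list, rose by 0.94 (SE 0.09) and 1.01 (SE 0.08). Of 5 stratified keratins tested, 3 rose and 1 fell (median 1.73), beside the same background. KRT17 and another of the 3 averaged under 10 normalized counts in control cells. They passed the filter only through their CPT-11 level, so the count and median of this list rest partly on the filter. KRT17 had 54.5 ± 15.4 normalized counts in CPT-11 cells and 3.81 ± 3.35 in control cells (SD, n = 3 each), and KRT15, a basal keratin, had 941 ± 67.7 in CPT-11 cells and 282 ± 21.9 in control cells. Leaving out CPT-11 sample 2 or 3 or control sample 2 or 3 removed the call of the stratified keratin that fell. Scaling by library totals without mitochondrial genes removed it too. With a filter of at least 50 normalized counts, 1 of the stratified keratins rose.

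Of 9 cornified envelope genes and proteases tested, 7 rose and 2 did not pass (median 0.72), beside 24.3% of all tested genes that rose. KLK5, a kallikrein that cleaves the desmosomal proteins of skin, averaged 197 ± 10.5 normalized counts in CPT-11 cells and 19.0 ± 7.90 in control cells (SD, n = 3 each), a log2 fold change of 3.39 (SE 0.27). KLK6, a related protease, rose by 2.28 (SE 0.11). KLK5 and KLK6 span 9.79 and 11.0 kb, and of tested protein-coding genes spanning 10 to 30 kb 33.8% rose. The part of gene span in the rise of these proteases was not tested. Of 20 enzymes that act on desmosomal proteins, 5 rose and 11 fell (median −0.27), beside 24.3% and 25.1% of all tested genes. PRKCA, the protein kinase C isoform that loosens desmosomes, averaged 212 ± 27.8 normalized counts in CPT-11 cells and 956 ± 28.8 in control cells (SD, n = 3 each), a log2 fold change of −2.18 (SE 0.12). PTPRK, a receptor phosphatase of cell contacts, fell by 2.07 on the log2 scale (SE 0.10). PRKCA and PTPRK span 508 and 552 kb, and most of the 11 enzyme genes that fell span over 150 kb. Among tested protein-coding genes of 150 to 300 kb, 61.7% fell. The part of gene span in the fall of this list was not tested.

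Of 30 trafficking and assembly partners tested, 5 rose, 10 fell and 15 did not pass (median −0.08), so that the share called was near the 49.4% of all tested genes. SFN, the 14-3-3 protein of epithelia and a p53 target, averaged 9963 ± 1406 normalized counts in CPT-11 cells and 2173 ± 232 in control cells (SD, n = 3 each), a log2 fold change of 2.19 (SE 0.11). Of 21 transcription regulators reported for desmosomal genes, 9 rose and 8 fell (median 0.07), beside 24.3% and 25.1% of all tested genes. SNAI2, a repressor of cadherin genes, had 36.8 ± 7.16 normalized counts in CPT-11 cells and 3.54 ± 3.50 in control cells (SD, n = 3 each), and GRHL3, an activator of epidermal genes, had 70 ± 5.05 in CPT-11 cells and 18.4 ± 8.68 in control cells. SNAI2 averaged under 10 normalized counts in control cells, so it passed the filter only through its CPT-11 level. Each adjusted p of the genes named in these lists as rising or falling was below 0.05 in the limma fit.

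**Figure D5:**
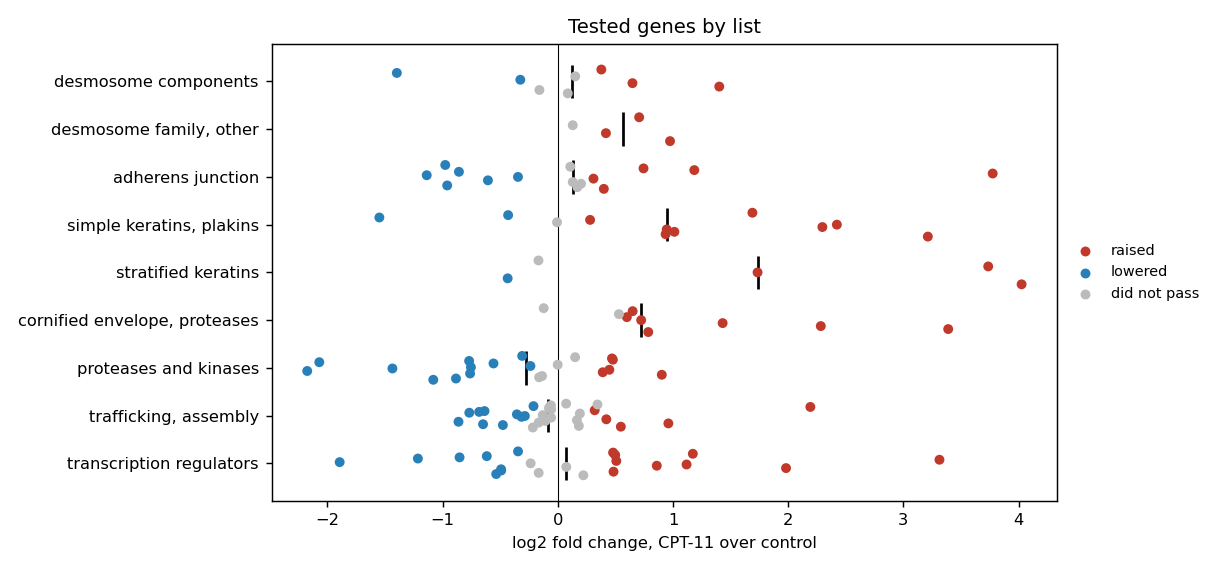
Log2 fold change of CPT-11 over control for the tested genes of the desmosome list and 8 related lists, 1 point a gene, red for raised, blue for lowered and grey for not passed, with a black bar at the median of each list. The simple keratins and plakins have 8 red points of 11 and a median of 0.94, while the enzymes acting on desmosomal proteins have 11 blue points of 20 and a median of −0.27.

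The genes whose 6 values ran most like those of DSC3 were SLC30A1, PSTPIP2 and SLFN5, at a root mean square distance of 0.06, 0.06 and 0.07 on the centred log2 scale, among 9981 protein-coding genes of at least 10 CPM. Their log2 fold changes were 1.51, 1.37 and 1.36, beside 1.40 for DSC3. The genes nearest to PKP4 were MAN1A1, DPY19L1 and PAM, at distances of 0.04, 0.04 and 0.05, with log2 fold changes of −1.40, −1.37 and −1.36, beside −1.40 for PKP4. These 6 samples form 2 groups, so likeness follows mainly the difference between them.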

How the data were processed

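RNA-seq of 3 CPT-11 and 3 control samples of HCT116 cells was used as deposited, in 1 table of 30560 genes. The values the authors deposited per sample are a normalized signal, called normalized counts here. In every library 100% of them were whole multiples, within 0.001, of what 1 read was worth, so reads were recovered. Gene lengths and coordinates equalled GENCODE 29 on GRCh38 for all 30560 genes. Per gene, a p-value and a log2 fold change by the authors are in the same table, per the file headers. Tools listed in the submitters' processing notes, with no order or role, are DESeq2 1.22.1, edgeR 3.24.3, HISAT2 2.1.0, fastp 0.19.3, StringTie 1.3.4d and featureCounts 1.6.2. Not given in the sources used here are strandedness and how reads that align to several places were treated.

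The test was limma 3.58.1 in R 4.3.3 with a mean-variance trend, on log2(normalized count + 1), for genes that averaged at least 10 normalized counts. RPKM was computed from recovered reads, total reads on genes and exon length. Alternatives included edgeR 4.0.16, DESeq2 1.42.0, voom, other pseudocounts of 0.5 and 5, filters, scalings, a replicate block and leaving out each sample. The scripts were tested on simulated data. Ratios of relatives were compared with exact permutation tests. Sequences are from RefSeq.

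The members, gene lists and markers were chosen with earlier results of these data known. All 10 members were named. From each related list the 2 called genes with the largest absolute log2 fold change and a mean of at least 1 CPM were named, as were PERP, CTNNB1, CDH1, DSG1, DSG4, DSC1 and the genes within 200 kb of the cadherin cluster, and for the 2 members that changed most the 3 most similar genes. KRT8, KRT18, GRHL1, GRHL2, ZEB1, TWIST1 and SNAI1 were named beside this rule after their values were seen. The other gene that the rule names from the trafficking list is not reported here.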

Additional observations from a re-analysis of the deposited data

How the results depend on the processing

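DSC3, JUP, DSP and PKP4 kept their direction and their side of the threshold under every alternative with a test, including leaving out each of the 6 samples. DSC2 did not pass under any. Members lowered numbered 1 in place of 2 when scaled by library totals without mitochondrial genes and with the replicate block, because PKP2 missed the threshold. Its log2 fold change was −0.24 (limma adjusted p = 0.0522) with those totals and −0.33 (limma adjusted p = 0.0608) with the block. Deviations of same-numbered samples were not positively correlated (−0.23, −0.01 and −0.10). With 3 samples a group, these values cannot show whether the numbers pair the samples. The block left 3309 genes raised and 3503 lowered in place of 3939 and 4083. Less the trend on genomic span, the log2 fold change was −0.12 for PKP2, 0.0035 for PKP3 and −0.78 for PKP4. Without library 1 of both groups, chosen after seeing the data, DSG2 passed at 0.24 and PKP3 turned to −0.078; the cause was not tested. The log2 ratio of PKP1 to PKP3 ran from −0.44, without CPT-11 sample 1, to 0.96 when 1 sample was left out; PKP1 had 10 reads over the CPT-11 libraries and 4 over the control libraries. The log2 ratio of DSG3 to DSG2 ran from 1.58 with a pseudocount of 5 to 3.99 with 0.5. Library totals without mitochondrial genes gave 8 raised adherens junction genes in place of 5 and 8 raised trafficking partners in place of 5, and 0 lowered stratified keratins in place of 1. Depth limits DSG3 and PKP1, whose reads lie near the floor of 3 in control libraries.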

Other observations

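Genes beside DSG2 and PKP4 on the opposite strand were at trace levels. DSG2-AS1 had 4.41, 4.05 and 9.46 normalized counts in CPT-11 samples, against 12.0, 10.7 and 10.4 in control samples, with no overlap. PKP4-AS1 had 7.94, 11.1 and 0 normalized counts in CPT-11 samples, against 16, 10.7 and 10.4 in control samples, and the groups overlapped. Neither had enough reads to be tested.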
